A study of Mus musculus with 8 samples.

Results

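The serpins, a superfamily of protease inhibitors, were followed in embryonic mouse skin that lacked p63 and in wild-type skin, both taken whole at stage E18.5. All probe sets were taken whose platform annotation gives exactly 1 symbol made of Serpin and a clade letter. This gave 39 probe sets for 32 genes among 24965 probe sets, 28 of them on the A chip and the other 11 on the B chip, and 2 of the genes (Serpinb1a and Serpinb9) had a probe set on both chips. Mice heterozygous for p63 were mated, and skin RNA came from 2 null and 2 wild-type embryos. The sources used here do not give the p63 allele or the strain background. RNA of p63 null skin was hybridised to 2 arrays of each chip, and RNA of wild-type skin to 2 arrays of each chip, which makes 8 arrays. As the A and B chips measure different probe sets, each was fitted on its own. Stage is the only other property given for either genotype, with no sex and no treatment. Nothing in the labels ties an embryo number on the A chip to the same number on the B chip.

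Most serpins inhibit proteases by offering an exposed reactive centre loop as bait. The protease cuts the loop, and the serpin then folds the cut strand into its central sheet, which traps the enzyme in an inactive complex. Clade a holds mainly secreted plasma proteins made in liver and elsewhere, clade b holds proteins without a classical secretion signal that act largely inside cells, and several members inhibit no protease at all. In stratified epithelia, serpins of clade b are abundant in keratinocytes, while trypsin-like and chymotrypsin-like kallikreins take part in shedding of the cornified layer. The transcription factor p63, encoded by Trp63, is needed to form a stratified epidermis.

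Trp63 had signals of 61.9 and 46.6 in null skin against 379.3 and 347.1 in wild-type skin (A chip, log2 change -2.49, SE 0.18, limma adjusted p = 1.13e-05). Whether its probes lie inside the mutated part is not known, so this value checks the labels only if they do or if the transcript is lost. Signals are the authors' MAS5 intensities per probe set on a linear scale, with nearly equal trimmed means over the arrays of a chip. Log2 fold changes subtract the wild-type mean of log2(signal + offset) from the null mean. The offset was 12.9 for the A chip and 54.3 for the B chip, so they understate changes of dim probe sets. A probe set was tested when its mean log2 value lay above the 40th percentile of its chip, which corresponds to a signal of 54.0 for A and 167 for B. The test was limma's moderated test, two-sided, with Benjamini-Hochberg adjustment over all tested probe sets of the chip and a threshold of 0.05. Every adjusted p below comes from it. Beta-actin probes gave 3' to 5' ratios, which reflect RNA integrity, of 1.27 in both null against 1.63 and 1.69 in both wild-type A-chip arrays, and of 1.36 and 1.33 against 1.5 and 1.98 for the B chip. For Gapdh they were 1.25 and 1.45 in null against 1.47 and 2.46 in wild-type A-chip arrays, and 1.26 and 1.51 against 1.55 and 2.66 for the B chip, so wild-type array 2 stood apart on both. The CreX hybridisation spike read higher in null array 2 (6420 for A, 32512 for B) than in the other arrays (3334 to 3837, and 16966 to 18942). The part of RNA integrity, of null array 2 and of wild-type array 2 in the results was not tested beyond leaving each array out.

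Of the 28 A-chip probe sets 13 were bright enough to test, and 6 of them were higher and 4 lower in null skin. The share of all 7453 tested A-chip probe sets called in either direction was 44.3%. Among the 11 B-chip probe sets 3 were tested, with 1 higher and 2 lower, beside 29.4% called among all 7446 tested. Of these tested members, 3 A-chip and 1 B-chip probe sets were above the level for testing in 1 genotype only, and such members had to differ, so these counts describe the family and support nothing further. Both null signals lay above both wild-type signals for 14 A-chip members and below them for 6, where 63.3% of all A-chip probe sets did not overlap. For the B chip 3 members lay above and 5 below, where 58.0% of all probe sets did not overlap. Among tested probe sets alone, 12 of 13 A-chip members did not overlap, where 73.9% of all did not, and 3 of 3 B-chip members, where 67.7% did not. With no filter, 2 of the 15 dim A-chip members were called higher and 1 lower, where 24.2% of all were called in either direction. Of the 8 dim B-chip members 1 was higher and 2 were lower, where 6.60% of all were higher and 7.30% lower.

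**Figure D1:**
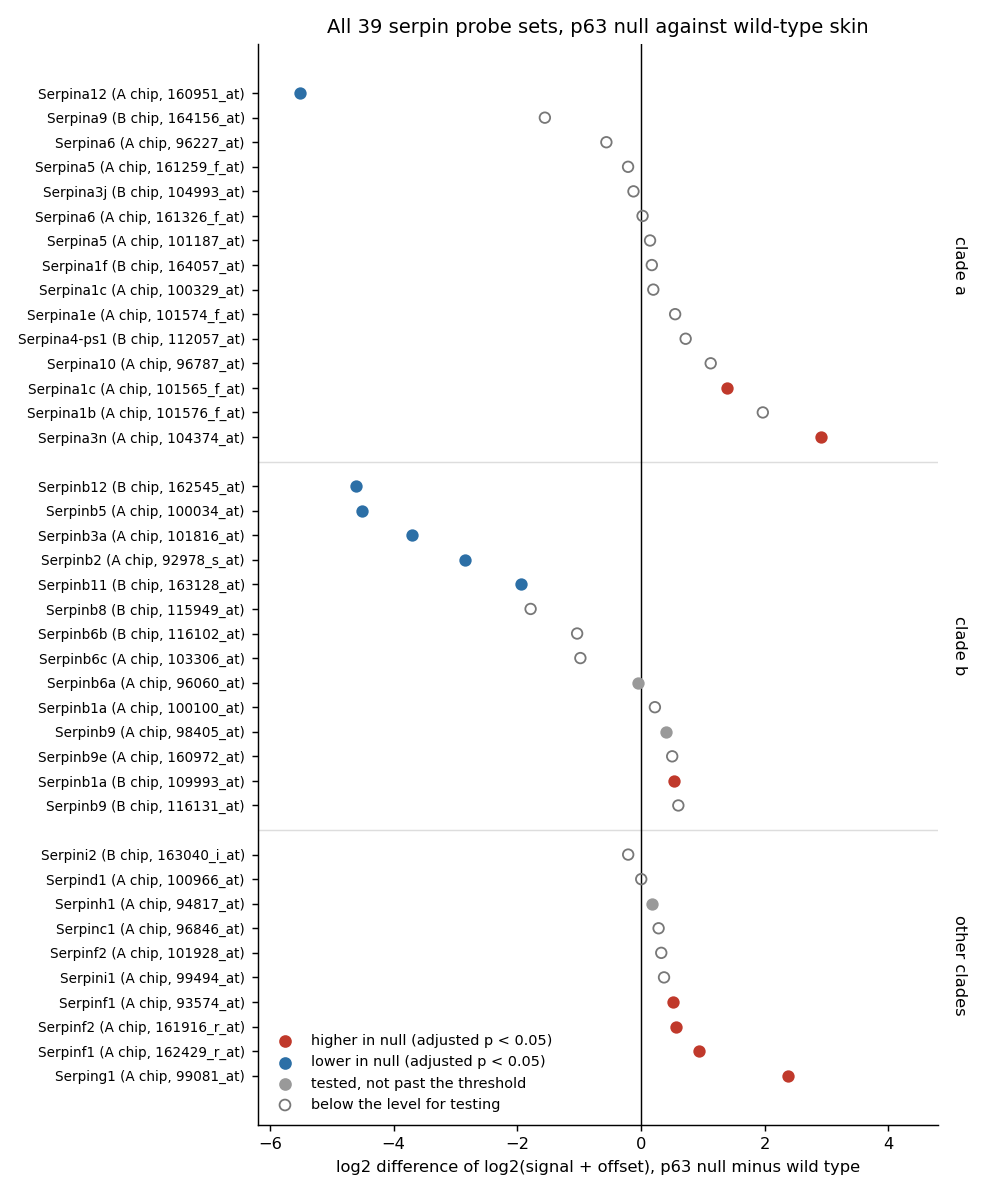
Log2 difference of log2(signal + offset), p63 null minus wild type (horizontal axis), for each of the 39 serpin probe sets, grouped by clade. Filled red and blue points passed limma's adjusted threshold, grey points were tested and did not, and open points lay below the level for testing. The falls to -5.52 are in clades a and b, and the other clades hold 4 rises and no fall.

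Clade b held most of the falls. Of 14 probe sets for 12 genes, 8 were tested, 5 fell, 1 rose and 2 did not pass. By chip, 3 of 5 tested fell on A, where 22.2% of all tested probe sets were lower, and 2 of 3 on B, where 14.9% were. Serpinb5 and Serpinb11 were above the level for testing in wild-type skin only. Serpinb12, an intracellular serpin that in human inhibits trypsin-like proteases, read 324.0 and 302.9 in null skin against 9080 and 8691 in wild-type skin on the B chip. The null values lay far below both wild-type values, with a log2 change of -4.60 (SE 0.12, adjusted p = 1.57e-06), at rank 14 of the falls on its chip. In whole skin, fewer cells of a type and less RNA per cell cannot be told apart, here and for the falls that follow.

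Serpinb5, or maspin, which inhibits no known protease and was described as a tumour suppressor of human mammary epithelium, read 30.4 and 33.4 in null skin against 1006 and 1010 in wild-type skin. The null arrays were 1.10-fold and the wild-type arrays 1.00-fold apart, and the groups did not overlap. Its log2 change was -4.51 (SE 0.15, adjusted p = 7.90e-08). Serpinb3a, a mouse relative of the human squamous cell carcinoma antigens, which inhibit cysteine cathepsins and chymotrypsin-like proteases, read 166.6 and 122.9 in null skin against 2061 and 1983 in wild-type skin (log2 fold change -3.70, SE 0.15, adjusted p = 2.41e-07). Close copies of this gene lie beside it, and their transcripts may bind the same probes.

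Serpinb2, the plasminogen activator inhibitor type 2 that inhibits urokinase, read 160.3 and 99.9 in null skin against 963.9 and 1027 in wild-type skin. The null arrays were 1.6-fold apart, still far below wild type, and the log2 change was -2.85 (SE 0.19, adjusted p = 6.94e-06). For Serpinb11, another epithelial member, the null arrays disagreed, with 208.3 and 28.8 in null skin against 540.7 and 489.6 in wild-type skin. The groups did not overlap and the log2 change was -1.95 (SE 0.48, adjusted p = 0.0227). That value was -2.79 without null array 1 and -1.12 without null array 2, and the call was lost without wild-type array 1 (adjusted p = 0.0562) and with no filter (0.0626).

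**Figure D2:**
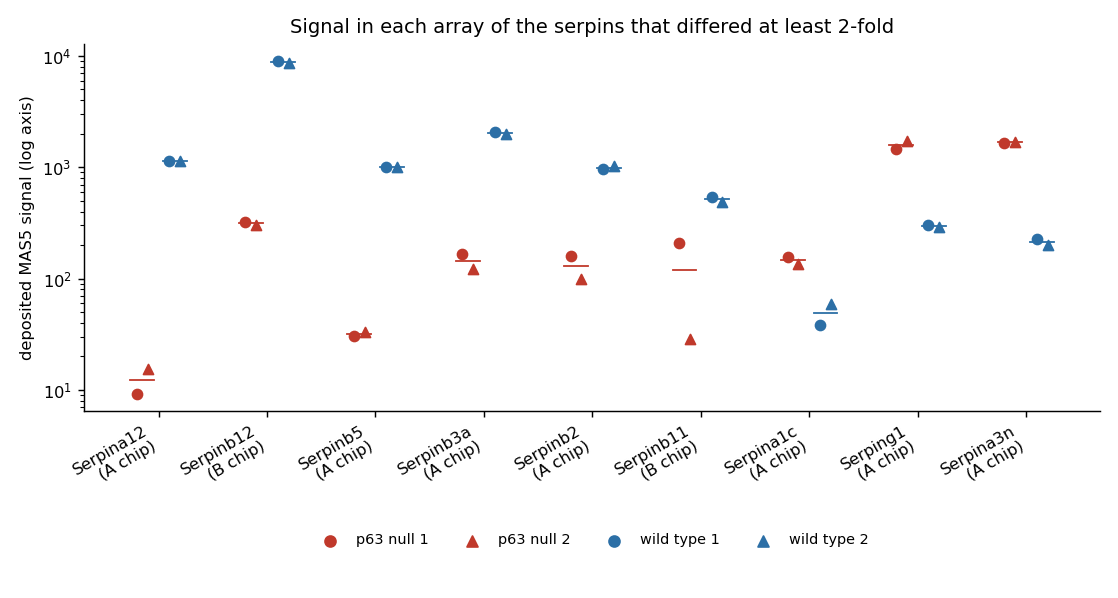
Deposited MAS5 signal (log axis) in each array of the 9 serpin probe sets that passed the threshold with an absolute log2 fold change of at least 1. Red marks are p63 null and blue marks wild-type arrays, circles are arrays numbered 1 and triangles arrays numbered 2, and lines are means. Serpinb11 is the member whose null arrays lie far apart, at 208.3 and 28.8.

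The other tested members of clade b had smaller differences. Serpinb1a, which inhibits neutrophil elastase and related proteases, read 2958 and 2647 in null skin against 1994 and 1831 in wild-type skin on the B chip. It rose by 0.54 on the log2 scale (SE 0.13, adjusted p = 0.0189). The call was lost without wild-type array 1 (adjusted p = 0.0688), without wild-type array 2 (0.138) and with no variance trend (0.0524). Its A-chip probe set, at 52.6 and 65.3 against 60.4 and 38.1, was too dim to test. Serpinb6a, a broadly expressed member whose human counterpart inhibits cathepsin G, read 1265 and 1191 in null skin against 1226 and 1318 in wild-type skin. The groups overlapped and the log2 change was -0.05 (SE 0.11, adjusted p = 0.743). Serpinb9, the granzyme B inhibitor of cytotoxic lymphocytes, read 154.0 and 96.3 in null skin against 84.3 and 92.8 in wild-type skin on the A chip (0.41, SE 0.23, adjusted p = 0.177). It passed without null array 2 (0.72, adjusted p = 0.0252) and had 0.11 without null array 1.

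Position along the chromosome did not enter the choice of the members, but the rule that joins genes into clusters was set after seeing the data. In the RefSeq gene order of GRCm38.p6, a cluster of 12 serpin genes runs from Serpinb5 to Serpinb8, and another of 16 runs from Serpinb1a to Serpinb6a. The 6 measured genes of the first cluster had null signals below both wild-type signals on their chips, where 63.3% (A) and 58.0% (B) of all probe sets did not overlap in either direction. Of these, Serpinb5, Serpinb12, Serpinb3a, Serpinb11 and Serpinb2 fell, and Serpinb5 and Serpinb11 were above the level for testing in wild-type skin only. Serpinb8, whose human counterpart inhibits furin, was too dim to be tested in the filtered fit. It read 24.9 and 15.9 in null skin against 158.4 and 255.4 in wild-type skin and had a log2 difference of -1.78 with no filter (adjusted p = 0.0137). In the second cluster 8 probe sets covered 6 genes, of which 3 were tested, 1 rose and 0 fell. Null signals lay above wild type for 4 of its probe sets, below for 2 and overlapped for 2. The 2 below were Serpinb6b (14.8 and 59.2 against 155.6 and 101.7) and Serpinb6c (21.4 and 20.3 against 55.2 and 52.0), with no-filter adjusted p-values of 0.0964 and 0.0277. Genes of a cluster share ancestry and partly sequence, so they are not independent of each other.

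**Figure D3:**
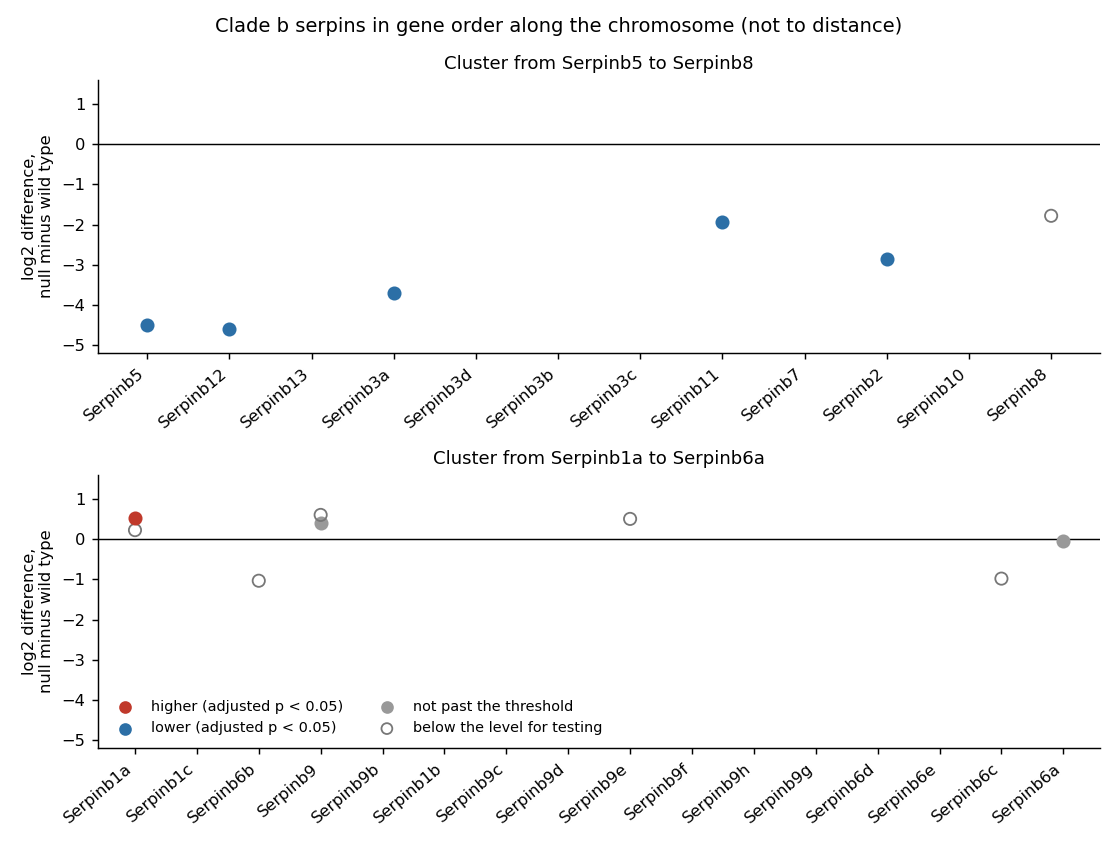
Log2 difference, p63 null minus wild type (vertical axis), of clade b probe sets placed in gene order along the chromosome, not to distance. The upper panel holds the cluster from Serpinb5 to Serpinb8, where the 6 measured genes lie between -4.60 and -1.78. The lower panel holds the cluster from Serpinb1a to Serpinb6a, whose probe sets lie between -1.03 and 0.61. Names without a point were not measured by a probe set with 1 symbol.

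Promoter windows of the 5 members of the first cluster that fell are shown because these genes moved together. Each window holds 250 bases before and 50 after a RefSeq start site of GRCm38.p6, written from 5′ to 3′ on the gene's strand, and for Serpinb12 and Serpinb2, which have 2 windows, the one with the lower coordinates is given. Capitals mark matches to the motifs TGANTCA and TTCNNNGAA, the latter being the core bound by STAT factors. TGANTCA is wider than the consensus of AP-1 factors, which has C or G at the middle base. Every TGANTCA match marked in these windows has A or T there and so is not that consensus.
Serpinb5 (chr1:106860925-106861224, plus strand): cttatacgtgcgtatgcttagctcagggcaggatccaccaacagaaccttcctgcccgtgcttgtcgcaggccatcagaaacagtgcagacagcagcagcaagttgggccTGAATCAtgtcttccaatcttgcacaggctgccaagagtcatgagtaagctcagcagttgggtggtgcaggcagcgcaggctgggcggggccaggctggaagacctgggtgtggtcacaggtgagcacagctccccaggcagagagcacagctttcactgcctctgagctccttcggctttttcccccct
Serpinb12 (chr1:106934199-106934498, plus strand): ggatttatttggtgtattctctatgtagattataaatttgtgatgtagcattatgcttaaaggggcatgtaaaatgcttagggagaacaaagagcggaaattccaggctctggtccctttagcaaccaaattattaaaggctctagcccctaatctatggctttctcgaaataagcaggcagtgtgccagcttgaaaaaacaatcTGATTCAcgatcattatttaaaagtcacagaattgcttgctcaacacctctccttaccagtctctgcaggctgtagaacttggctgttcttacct
Serpinb3a (chr1:107052254-107052553, minus strand): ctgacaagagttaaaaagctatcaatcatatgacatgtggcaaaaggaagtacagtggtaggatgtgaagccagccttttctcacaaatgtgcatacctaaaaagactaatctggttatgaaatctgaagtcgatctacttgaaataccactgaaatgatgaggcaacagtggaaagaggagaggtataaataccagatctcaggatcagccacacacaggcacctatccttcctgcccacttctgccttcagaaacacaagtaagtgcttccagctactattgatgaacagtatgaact
Serpinb11 (chr1:107362064-107362363, plus strand): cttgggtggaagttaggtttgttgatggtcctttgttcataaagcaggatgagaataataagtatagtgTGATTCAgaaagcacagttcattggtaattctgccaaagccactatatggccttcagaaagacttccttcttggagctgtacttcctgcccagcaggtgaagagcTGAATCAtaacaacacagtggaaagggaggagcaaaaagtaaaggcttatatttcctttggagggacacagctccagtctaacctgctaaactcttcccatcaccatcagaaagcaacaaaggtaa
Serpinb2 (chr1:107511173-107511472, plus strand): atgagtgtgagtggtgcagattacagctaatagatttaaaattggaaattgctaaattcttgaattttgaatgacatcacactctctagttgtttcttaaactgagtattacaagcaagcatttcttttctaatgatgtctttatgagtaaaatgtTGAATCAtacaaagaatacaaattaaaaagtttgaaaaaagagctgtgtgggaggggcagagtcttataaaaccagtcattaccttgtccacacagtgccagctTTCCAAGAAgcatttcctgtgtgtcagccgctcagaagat
The heptamer TGANTCA, which reads the same on both strands, occurred in 7.81% of all 32851 RefSeq promoter windows of this length. Of the member genes in the cluster from Serpinb5 to Serpinb8 it occurred in a window of 5 of 6, Serpinb3a being without it. Of these 5 only Serpinb8, not shown above, had C or G at the middle base (TGAGTCA). Over the whole cluster it was in a window of 7 of 11 genes with a window, and in the cluster from Serpinb1a to Serpinb6a in 0 of 15. It began at position -140 from the start site in Serpinb5, at -45 in Serpinb12, at -181 and -76 in Serpinb11 and at -94 in the Serpinb2 window above. The other Serpinb12 window had no match. In the cluster of 23 genes from Serpina10 to Serpina3n, TGANTCA was in a window of 4 of 18 genes, and of 2 of 8 member genes. Those 2, Serpina1b and Serpina1c, held TGACTCA at -240 and -239. The brighter Serpina1c probe set was called higher in null skin, and Serpina1b was called higher with no filter. Among 26 member genes with a window, 7 held TGANTCA, 3 held TTCNNNGAA (8.30% of all windows), 2 held the paired core of interferon response elements (3.44%), and 0 held a strict form of the paired p53-family half-sites (0.712%). All were searched on both strands. The percentages are shares of windows, while the gene counts take a match in any window of a gene. A gene with several windows thus had more chances to match. A match is a stretch of letters and not a measured binding site, and a window without one says nothing about binding elsewhere.

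Clade a held a large fall and a large rise. Its 15 probe sets covered 12 genes, but only 3 were bright enough to test, 2 of which rose and 1 fell, all on the A chip, where 22.1% of all tested probe sets were higher and 22.2% lower. Of these 3, Serpina12 and Serpina1c were above the level for testing in 1 genotype only. Serpina12, or vaspin, a secreted serpin described in fat and skin that inhibits kallikrein 7, read 9.2 and 15.5 in null skin against 1140 and 1127 in wild-type skin. The null values were near the bottom of the chip's scale while the wild-type arrays were 1.01-fold apart. Its log2 fold change of -5.52 (SE 0.18, adjusted p = 7.24e-08) ran from -6.45 with an offset of 1 to -4.19 with an offset at the 40th percentile. Of the adipocyte markers tested on the same chip, 11 of 13 were higher and 0 lower, beside 22.1% of all tested probe sets higher. Their summed signals were 25844 and 27416 in null skin against 12432 and 12007 in wild-type skin. Of these markers, Plin4 and Ucp1 were above the level for testing in null skin only. The part of fat cells in the Serpina12 value was not tested.

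Serpina3n, an acute phase serpin related to human alpha-1-antichymotrypsin that inhibits granzyme B in mouse, read 1649 and 1704 in null skin against 224.8 and 199.6 in wild-type skin. The null arrays were both high and close together, and the log2 change was 2.91 (SE 0.12, adjusted p = 2.94e-07), at rank 21 of the rises. Over the alternatives tried it ran from 2.71 to 2.99. Serpina3n and Serpina12 belong to one cluster of 23 serpin genes, and they had opposite directions.

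Serpina1c belongs to the alpha-1-antitrypsin genes, plasma inhibitors of neutrophil elastase with several close copies in mouse. Its brighter probe set, of a kind whose probes can bind the copies too, read 156.7 and 136.3 in null skin against 38.5 and 58.6 in wild-type skin (log2 fold change 1.39, SE 0.23, adjusted p = 0.00113). A second Serpina1c probe set read 7.6 and 10.6 against 2.1 and 11.4, at the bottom of the scale and overlapping, so the probe sets do not settle which copy was measured. Serpina1b, from the same group, read 65.1 and 60.6 in null skin against 5.9 and 6.9 in wild-type skin. It was too dim for the filtered fit and had a log2 difference of 1.97 with no filter (adjusted p = 0.00225).

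Among the other clade a probe sets that were too dim to test, Serpina9, named centerin for its expression in human germinal centre B cells, lay below wild type, at 30.7 and 40.8 in null skin against 202.1 and 217.0 in wild-type skin. Its log2 difference was -1.55 (no filter, adjusted p = 0.0142). Serpina10, the protein Z-dependent inhibitor of coagulation factor X, read 45.1 and 59.5 in null skin against 11.2 and 23.5 in wild-type skin (1.13, no filter, adjusted p = 0.0391). Serpina1e, Serpina1f, Serpina3j, Serpina5 (protein C inhibitor), Serpina6 (corticosteroid-binding globulin) and the pseudogene Serpina4-ps1 did not pass with no filter either, with differences between -0.56 and 0.72. Of the other dim members, the B-chip probe set of Serpinb9 read 36.8 and 40.9 against 8.2 and 5.6 (0.61, no filter, adjusted p = 0.0464), and Serpinb9e did not pass (0.51, adjusted p = 0.258).

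In the remaining clades rises were found and no fall. Of 10 probe sets for 8 genes 5 were tested, 4 rose and 1 did not pass, beside 22.1% of all tested A-chip probe sets higher. Serping1, the C1 inhibitor that blocks the complement proteases C1r and C1s and contact-system proteases, read 1456 and 1734 in null skin against 303.6 and 288.9 in wild-type skin. The groups were far apart, with a log2 change of 2.37 (SE 0.13, adjusted p = 1.45e-06) at rank 35 of the rises.

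Serpinf1, the pigment epithelium-derived factor, a secreted serpin that inhibits no known protease and restrains vessel growth, rose on both of its A-chip probe sets. The brighter one read 1430 and 1548 in null skin against 884.8 and 1199 in wild-type skin (0.52, SE 0.15, adjusted p = 0.0196). Its call was lost without wild-type array 1 (0.31, adjusted p = 0.195), with no filter (0.0573) and with no variance trend (0.0543). The dimmer one, at 154.3 and 194.7 against 77.0 and 92.7, rose by 0.94 (SE 0.19, adjusted p = 0.00430).

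Serpinf2, the plasma inhibitor of plasmin, had a probe set at 315.6 and 237.3 in null skin against 185.3 and 177.4 in wild-type skin (0.56, SE 0.17, adjusted p = 0.0255). The call was lost without null array 1 (0.37, adjusted p = 0.131), without wild-type array 1 (0.0544), without wild-type array 2 (0.0960) and with no filter (0.0573). Its second probe set lay between 4.4 and 10.7 in all arrays. Serpinh1, the chaperone of procollagen in the endoplasmic reticulum, read 3813 and 4245 in null skin against 3466 and 3637 in wild-type skin. The groups did not overlap, but the log2 fold change of 0.18 (SE 0.12, adjusted p = 0.236) did not pass, and it passed without null array 1 (0.26, adjusted p = 0.0341). Serpinc1 (antithrombin), Serpind1 (heparin cofactor II), Serpini1 (neuroserpin) and Serpini2 were too dim to test and did not pass with no filter.

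Markers of cell types were read beside these values. Suprabasal keratinocyte markers fell in 10 of 11 tested A-chip cases and 6 of 6 B-chip cases, and rose in 0. Their summed signals were 9068 and 11105 in null skin against 38785 and 36787 in wild-type skin (A chip), and 3225 and 3491 against 54541 and 58192 (B chip). Basal keratinocyte markers fell in 6 of 7 and 4 of 5 tested cases, with summed A-chip signals of 1092 and 842.9 in null skin against 9590 and 9890 in wild-type skin. The B-chip sums were 3324 and 3503 in null skin against 23355 and 26148 in wild-type skin. Of the keratinocyte markers, Ivl, Dsc1, Lamb3 and Lama3 on the A chip were above the level for testing in wild-type skin only. The same held for Dapl1, Dsg1a and Krt77 on the B chip, so all of these could only be tested as falls. The basal keratins Krt5 and Krt14 read at most 15.9 in every A-chip array of both genotypes. Krt15 read 1.5 to 1.9 on the A chip too. Its B-chip probe set read 842.1 and 784.0 in null skin against 10544 and 12121 in wild-type skin. Low A-chip readings of these keratins thus do not show that their RNA was absent.

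Beside the rises of Serpina3n, Serping1 and Serpina1c, macrophage markers rose in 13 of 15 tested cases (summed signals 11888 and 12841 in null skin against 4954 and 4761 in wild-type skin) and neutrophil markers in 4 of 6 (4280 and 4243 against 865.0 and 813.0). Of 20 hepatocyte markers on the A chip 4 were bright enough to test and 3 rose, with summed signals of 3043 and 2700 in null skin against 1259 and 1142 in wild-type skin. These were Alb, the serum albumin gene (268.8 and 285.0 against 47.5 and 41.9), Hp, the acute phase protein haptoglobin (1605 and 1302 against 384.6 and 381.5), and Cyp2e1. Alb was above the level for testing in null skin only, so it could only be tested as a rise. The other 16, among them Afp, Apoa1, Fga and Ttr, were too dim to test and read 1.1 to 54.7. Null signals lay above wild type for 8 of these 16, below for 1 and overlapped for 7. For the B chip 1 of 3 hepatocyte markers was tested and did not pass. Endothelial markers rose in 8 of 10 tested cases, skeletal muscle markers in 18 of 18 and fibroblast markers in 4 of 15, with 2 fibroblast markers lower. The muscle marker Actn2 was above the level for testing in null skin only. The count of fibroblast rises was 7 without null array 1, 2 without wild-type array 1 and 1 without wild-type array 2, and 1 fell without wild-type array 1. B-chip endothelial markers rose in 4 of 5 cases, in 2 without null array 2 and in 1 without either wild-type array, and the adipocyte marker Agpat2 rose, while the 1 fibroblast marker did not pass. No megakaryocyte marker was bright enough to test on the A chip, and 1 of 3 rose among B-chip ones (2 without null array 1, 0 without null array 2 or wild-type array 1). The part of cell composition in the serpin values was not tested.

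The proteases that serpins act on were read by class. Epidermal proteases fell in all 4 tested A-chip cases (median log2 fold change -3.21) and in all 5 B-chip cases (-3.50), where the medians over all tested probe sets were 0.02 and 0.04. The shares of all tested probe sets that were lower were 22.2% (A) and 14.9% (B). Those that were higher were 22.1% and 14.5%, also for the list counts that follow. Klk7, the kallikrein that Serpina12 inhibits, read 626.6 and 932.5 in null skin against 14415 and 15230 in wild-type skin (log2 fold change -4.18, adjusted p = 8.56e-06). Genes of the same list that were too dim to test did not share this direction. Null signals lay above wild type for 3 of 5 such A-chip genes and 1 of 2 B-chip genes, below for 0, and the rest overlapped. The 3 were Klk6, with 50.3 and 50.2 in null skin against 2.9 and 3.4 in wild-type skin, Hpn (55.4 and 50 against 29.6 and 29.9) and Tmprss2 (22.3 and 18 against 14.5 and 10.8). The B-chip gene was Klk12 (63.6 and 77.9 against 47 and 57.9). With no filter the A-chip count was 1 higher beside the 4 lower. Klk5 and the membrane protease matriptase, St14, had log2 fold changes of -5.57 and -3.50. Both were above the level for testing in wild-type skin only, so they could only be tested as falls. On the A chip the largest falls of this class were those of Casp14 (-3.63), a caspase that processes filaggrin, the aspartic protease Asprv1 (-3.59) and Klk8 (-2.83). Serpina12, read by the A chip, and Klk7, read by the B chip, were both lower in null skin.

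Complement proteases were higher beside Serping1. C1ra rose on the A chip, at 577.9 and 559.4 in null skin against 160.8 and 271.8 in wild-type skin (1.39, adjusted p = 0.000758), and C1s1 on the B chip, at 3593 and 3553 against 810.9 and 1066 (1.88, adjusted p = 0.000194). With C2 (1.37), 2 of 3 tested genes rose on the A chip, and 1 of 2 for the B chip (2 without null array 2). In the plasminogen and coagulation list 4 of 9 tested A-chip genes rose and 1 fell. Plaur, the receptor of urokinase, the clearance receptor Lrp1 and Plat, the tissue plasminogen activator, rose by 1.34, 1.06 and 0.97. Plaur was above the level for testing in null skin only. F3, the tissue factor that starts coagulation, read 52.8 and 71.5 in null skin against 647.4 and 778.0 in wild-type skin (log2 fold change -3.28, adjusted p = 1.45e-06). B-chip probe sets of F3 had -2.78 and F13a1, a transglutaminase subunit of coagulation, 0.94, both past the threshold. On the B chip F3 was above the level for testing in wild-type skin only. Plau, the urokinase that Serpinb2 inhibits, read 59.3 and 56.3 in null skin against 51.8 and 29.2 in wild-type skin and was too dim to test.

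Among lysosomal proteases, 4 of 12 tested on the A chip rose and 0 fell, where 22.1% of all tested probe sets were higher. The largest rises were those of Ctss (1.98), the legumain gene Lgmn (1.4) and Ctsb (0.83). On the B chip 2 of 2 rose, Ctsf (0.76) and Ctso (0.63), where 14.5% of all tested were higher. The A-chip count was 7 without null array 2, and the B-chip count was 0 without either wild-type array. Granule proteases of leukocytes and mast cells rose in 4 of 7 cases and fell in 0. Tpsab1, a mast cell tryptase, read 2606 and 3281 in null skin against 280.4 and 304.3 in wild-type skin (3.27, adjusted p = 2.94e-07), and Tpsb2 and Mcpt4 rose by 1.34 and 0.60. The count was 2 without either wild-type array. Of the proprotein convertases, 1 of 5 rose on the A chip, Pcsk5 (0.65, adjusted p = 0.0365), above the level for testing in null skin only. The 1 tested on the B chip fell (Pcsk6, -0.57, adjusted p = 0.0416). Both calls were lost without null array 1 and without wild-type array 2, and that of Pcsk6 also without wild-type array 1.

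Inhibitors of other families went both ways. Of 12 tested A-chip genes 2 rose and 2 fell, beside 22.1% and 22.2% of all tested probe sets. Of 8 B-chip genes 1 rose and 3 fell, beside 14.5% and 14.9%. Spint1, an inhibitor of matriptase, read 5.3 and 4.1 in null skin against 247.0 and 258.6 in wild-type skin on the A chip (log2 fold change -3.92, adjusted p = 1.83e-06). Its B-chip probe set went the other way and did not pass, with 266.3 and 225.8 in null skin against 71.1 and 162.0 in wild-type skin (0.86, adjusted p = 0.0822), so the direction for this gene is not settled. The stefin Stfa3, an inhibitor of cysteine proteases whose probe set can bind other stefins, read 8499 and 9404 against 35559 and 36552 on the B chip (-2.01, adjusted p = 3.69e-05). Wfdc12, of the whey acidic protein family, and Itih4, an acute phase plasma protein, rose by 2.73 and 2.88. These 2 were above the level for testing in null skin only, and the A-chip probe set of Spint1 in wild-type skin only. Cst6, a cystatin of the cornified layer, had -1.32, and Itih5 had -1.03 (A chip) and -0.81 (B chip). Left-out arrays changed these counts, to 1 rise on the A chip without either null array, to 1 fall there without either wild-type array, and to 0 rises on the B chip without null array 2.

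Genes of collagen synthesis, whose products Serpinh1 helps to fold, rose in 11 of 22 tested cases on the A chip and fell in 0. Their median was 0.37, and 22.1% of all tested A-chip probe sets were higher. The largest rises were those of Col4a2 (0.88), Bmp1 (0.85), a protease that trims procollagen, and Pcolce (0.67). The B-chip probe set of Bmp1 was too dim to test and lay the other way. It read 65 and 119.8 in null skin against 163.7 and 219.6 in wild-type skin, so the direction for Bmp1 is not settled. Of 7 B-chip genes 2 rose, Plod1 (0.80) and P3h1 (0.67), which modify lysine and proline residues of collagen. The A-chip count was 5 without wild-type array 1 and 6 without wild-type array 2, and the B-chip count was 1 without either.

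**Figure D4:**
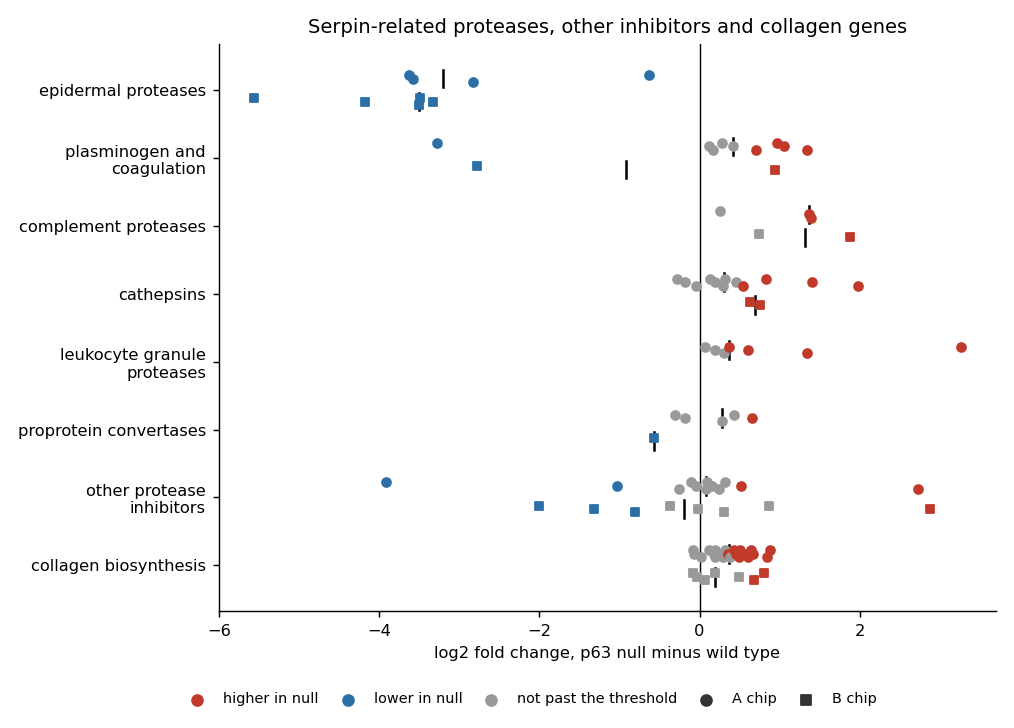
Log2 fold change, p63 null minus wild type (horizontal axis), of the tested genes of each protease, inhibitor and collagen list, each gene read by its brightest tested probe set. Circles are A-chip and squares B-chip genes, red and blue passed the threshold, grey did not, and black bars are list medians. The epidermal proteases bright enough to test lie below 0, with medians of -3.21 and -3.50.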

How the data were processed

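Whole-skin RNA was hybridised to single-colour Affymetrix arrays. Per the labels' protocols the RNA was isolated with TriZol and an RNeasy clean-up, and the target carried biotin. The deposited values hold MAS5 intensities per probe set on a linear scale, per the submitters' processing notes. The sources used here give no MAS5 version or detection calls. Trimmed means (2% at each end) of 250.1 to 250.2 (A chip) and 500.1 (B chip) show that the deposited intensities were already scaled. No depth exists for arrays, and their number limits the precision.

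Arrays were grouped by title. Each array was rescaled to one trimmed mean, the 20th percentile of the chip's rescaled signals was added, and log2 was taken. Control probe sets, 66 a chip, did not enter the fit. Limma 3.58.1 (R 4.3.3; lmFit and eBayes with an intensity trend) compared null with wild type. Exact permutation of 2 against 2 arrays cannot go below p = 0.333. Nothing says how the embryos were drawn from litters, so p-values measure the spread between these samples only. Correlations of deviations between same-numbered arrays were 0.04 and -0.05, and no source pairs them. In simulated A-chip data with 7453 probe sets the fit recovered 42 of 100 log2 changes of 1, and in B-chip data with 7446 probe sets 46 of 100. For log2 changes of 2 it recovered 87 and 92 of 99. False calls were 2 of 131 and 3 of 141. The simulations changed a far smaller share of probe sets than was called in the data, so their recovery does not describe this fit.

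All 39 members were found by gene identifier in RefSeq (GRCm38.p6) under the same symbol. A further 4 A-chip probe sets that name several genes, a serpin among them, were not used. The members, gene lists and motifs were chosen with earlier results of these data known. Members past the threshold with an absolute log2 fold change of at least 1 and the markers Serpina12, Serpinb5, Serpina3n and Serping1 are given by array, and the other members more briefly. From each protease, inhibitor and collagen list the up to 3 largest changes per direction are named, with some further genes that were chosen after their values were seen. Neighbouring serpin genes were joined into a cluster when at most 10 places apart in the order of protein-coding genes, a rule set after seeing the data. Tested alternatives were median centring, quantile normalization, other offsets and filters, no variance trend, a replicate block and leaving out each array.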

Additional observations from a re-analysis of the deposited data

How the results depend on the processing

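Among the values of single serpin probe sets under the alternatives, 190 kept their direction and side of the threshold, 12 lost the call, 8 gained one and 1 changed sign, Serpinb6a without wild-type replicate 2 (0.0016, adjusted p = 0.996). Its values with an array left out ran from -0.10 to 0.0016. The calls of Serpina12, Serpinb2, Serpinb3a, Serpinb5, Serpinb12, Serpina3n, Serping1, Serpina1c and the dimmer Serpinf1 probe set held under every alternative in which they were tested. On the B chip the count of serpin probe sets higher in null was 2 with no filter and 0 with no variance trend, and the count lower in null was 1 with the filter at the 60th percentile. With an array left out, the counts on the A chip were 4 to 7 higher and 4 lower, and on the B chip 0 to 1 higher and 1 to 2 lower. Over all tested probe sets they were 1075 to 1579 higher and 1052 to 1797 lower on the A chip, and 575 to 1244 higher and 544 to 1354 lower on the B chip. Genes of the protease and inhibitor lists on the B chip numbered 3 to 5 higher when an array was left out, beside 5 in the full fit. A leave-one-out fit has 1 array of a genotype, assumed to vary like the other genotype. Under the replicate block, which pairs arrays that share only a number, serpin calls on the A chip were 6 higher and 4 lower and on the B chip 1 higher and 2 lower, the same counts as without it. Where calls changed, the cause was not tested, except that more or fewer probe sets enter the adjustment under the other filters. Detection calls were not used, so signals near the bottom of the scale have no known order.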
